A study of Drosophila melanogaster with 6 samples.

Results

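Arc1, Arc2 and Iris, genes that the Drosophila melanogaster genome took over from retroelements, were followed in whole larvae of 3 fio genotypes. Their rows were found by gene name, 3 of the 17908 genes in the deposited count table, and all 3 were among the 11866 genes that passed the filter on low counts. The genes were chosen with their values in these genotypes known, so their levels and fold changes are given as a description, without p-values. Polyadenylated RNA was sequenced from 2 libraries of each genotype. Rescue larvae were fiomut ,[U6+]/fiomut ;U6mut/U6+, homozygous for the fio mutation, heterozygous for a U6 mutation and with an added [U6+] element, read here as a U6 copy. Mutant larvae were fiomut/fiomut ;U6mut/U6+, the same without that element. Control larvae, abbreviated wt in the labels, were fiomut/cyo: they too carried a fio mutant chromosome, over the CyO balancer, and their label names no U6 allele. The labels give no larval stage, sex or number of animals, and do not say whether libraries of a genotype came from separate cultures, so the spread between them may be technical. The study asked which genes depend on the m6A methyltransferase METTL16, and CG7544, which the RefSeq gene table names METTL16, was taken as the targeted gene.

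Arc proteins descend from Gag, the structural protein that builds the capsid of gypsy-type retrotransposons. In Drosophila, Arc1 protein forms capsid-like particles that enclose Arc1 messenger RNA, binding its 3′ untranslated region, and that pass in extracellular vesicles from motor neurons to muscle at the larval neuromuscular junction. Arc1 is also known for effects on fat storage and feeding behaviour. Arc2 is its neighbouring paralog. Iris descends from the envelope gene of an insect retrovirus, the protein that fuses a virus with its host cell.

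All 3 genes were annotated as a single exon with 1 transcript each (Release 6 coordinates, Ensembl annotation, which gave the same starts and ends as the deposited table). Arc1 (gene 36595) lies on the minus strand of 2R from 14357927 to 14360297. Its coding part of 765 bases, stop codon included, encodes 254 residues, and its 3′ untranslated region of 1509 bases makes up 63.6% of the transcript. Arc2 (gene 36597) lies on the plus strand of 2R from 14361924 to 14362825, encodes 193 residues and has a 3′ untranslated region of 204 bases. Between them, 135 bp from Arc1 and 143 bp from Arc2, sits CR10102 on the minus strand from 14360433 to 14361780, an annotated pseudogene that the RefSeq gene table also lists under the name Arc3. These genes fill 4899 bp from the first base of Arc1 to the last base of Arc2. Iris (gene 33290) lies on the minus strand of 2L from 1132332 to 1134098 and encodes 531 residues. Its last 80 bases overlap CG4552, which is read from the opposite strand.

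**Figure D1:**
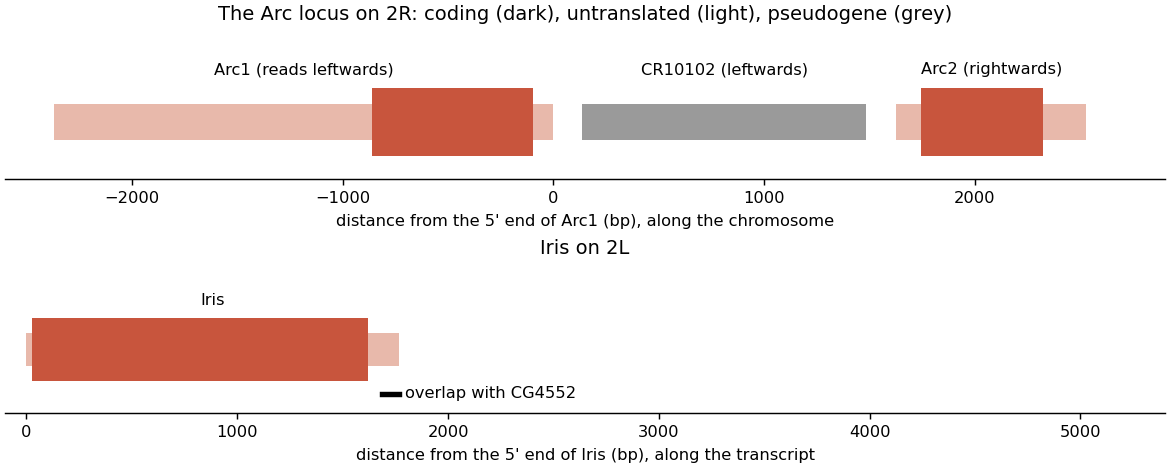
Gene models of the Arc locus (distance in bp from the 5′ end of Arc1, along the chromosome) and of Iris (distance in bp from its 5′ end, along the transcript), drawn to the same scale. Dark blocks are coding, light blocks untranslated and the grey block is the pseudogene CR10102, which lies between Arc1 and Arc2; the bar under Iris marks the 80 bases shared with CG4552.

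The libraries held 15983161 to 17847161 counts, and intervals and limits given here cover counting error only. CG7544 (2R, 15147860 to 15149709) had 22 and 46 counts in rescue libraries, 52 and 25 in mutant libraries and 41 and 35 in control libraries, so the genotypes overlapped and this gene's counts check no label. Mitochondrial large ribosomal RNA held 8.22 and 7.40% of each library in rescue, 4.56 and 3.49% in mutant and 11.6 and 8.62% in control. Of the markers of stage, 6 larval fat body genes had a summed level of 54987 and 78307 CPM (library counts scaled to a common total with trimmed-mean factors) in rescue, 64768 and 70772 CPM in mutant and 92470 and 93465 CPM in control; 2 fell in mutant against control and 2 rose in rescue against mutant, 0 in each without mutant 1 and 1 in each without mutant 2. Those that moved were Fbp1 and Lsp2, known to be switched on late in larval life, while the Lsp1 genes made up most of the sum. Fbp1 had 17056 and 21040 CPM in rescue, 501 and 398 CPM in mutant and 2270 and 13214 CPM in control (log2 -4.11 for mutant against control and 5.40 for rescue against mutant). Lsp2 had 1671 and 1602 CPM in rescue, 328 and 503 CPM in mutant and 1393 and 2230 CPM in control (log2 -2.13 and 1.98 in the same comparisons). The 7 salivary glue genes, also known for late larvae, had 5 members that fell in mutant against control and 6 that rose in rescue against mutant, and are given with the tissue markers. The control libraries differed between themselves in these late genes, and the part of larval age in the members' levels was not tested. The summed level of 6 adult-stage genes was 12.0 to 44.9 CPM, with Acp26Aa at 0 in every library. Among all tested genes, 9.94% rose and 7.04% fell in mutant against control at an adjusted p under 0.05 in edgeR. In rescue against mutant 7.61% rose and 8.47% fell. Of the 2 adult-stage genes tested, 1 rose and 1 fell in mutant against control, 0 without mutant 1 or mutant 2, and the decrease was also lost without control 2.

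Arc1 RNA was several times more abundant in larvae homozygous for fiomut than in controls, with or without the added U6 element. Its level was 3113 and 2156 CPM in the rescue libraries, 4942 and 3501 CPM in the mutant libraries and 595 and 549 CPM in the control libraries. The mutant libraries were the highest, the rescue libraries lay between, and no library of one genotype overlapped another. Arc1 averaged 4222 ± 1019 CPM in mutant larvae and 572 ± 32.5 CPM in control larvae (SD, n = 2 each), a 7.38-fold difference (log2 2.88, SE 0.32). In rescue larvae it averaged 2635 ± 676 CPM, which was 4.61 times the control level (log2 2.20, SE 0.31) and 0.624 times the mutant level (log2 -0.68, SE 0.30). Among the tested genes Arc1 ranked 23 and 34 by CPM in the rescue libraries, 19 and 24 in the mutant libraries and 265 and 246 in the control libraries. It took 0.499 and 0.363% of all counts in the mutant libraries, against 0.0488 and 0.0524% in the control libraries. RNA came from whole larvae, so more cells of a type that expresses a gene and more RNA per cell cannot be told apart.

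**Figure D2:**
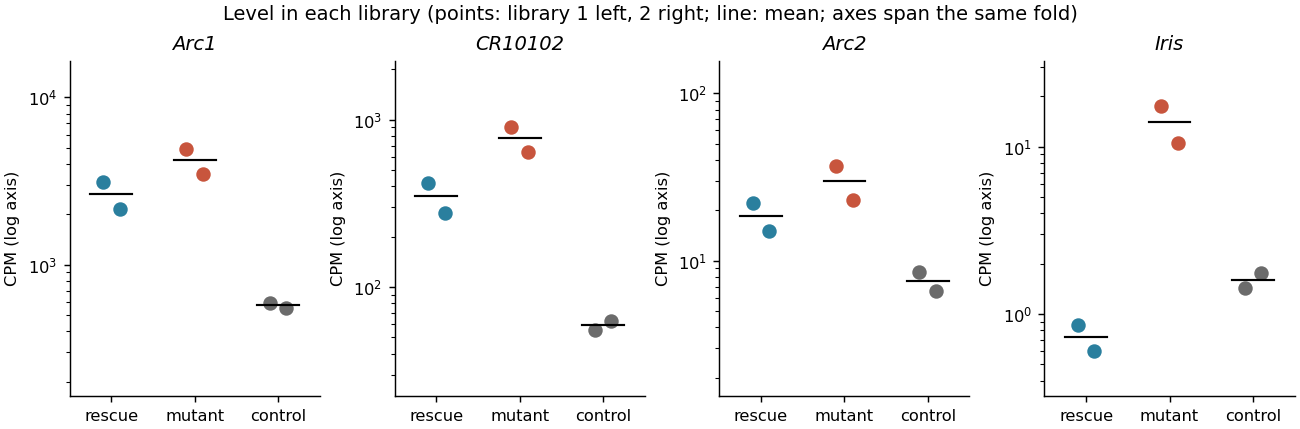
Level of Arc1, the pseudogene CR10102, Arc2 and Iris in each library (CPM, log axis; points are libraries, lines are means of 2 libraries, and every panel spans the same fold). Arc1, CR10102 and Arc2 had their rescue libraries between mutant and control, while Iris had 0.854 and 0.600 CPM in rescue, below its 1.43 and 1.76 CPM in control.

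CR10102, the pseudogene between the Arc genes, rose in the mutant, with a larger log2 difference than either of them; the difference from theirs was not tested. It had 417 and 278 CPM in the rescue libraries, 900.1 and 644 CPM in the mutant libraries and 55.5 and 62.9 CPM in the control libraries. The order of the genotypes was that of Arc1, again without overlap. It was named for its place beside Arc1 and Arc2, and it rose in mutant against control larvae (log2 3.70, SE 0.32, edgeR quasi-likelihood test, adjusted p = 8.41e-04). It also rose in rescue against control larvae (log2 2.55, SE 0.31, edgeR adjusted p = 0.0291) and fell in rescue against mutant larvae (log2 -1.15, SE 0.29, edgeR adjusted p = 0.0399). The first of these calls held under all 13 alternative settings (edgeR or DESeq2 adjusted p up to 0.00903). The call between rescue and control was lost without mutant 1, mutant 2 or control 1 and with only those genotypes in the fit (edgeR adjusted p = 0.0800, 0.0782, 0.0720 and 0.0919; lowest over the 13 alternatives 1.22e-13). The call between rescue and mutant was lost without any 1 of these 4 libraries (edgeR adjusted p from 0.0628 to 0.245) and with library totals as the only scaling (0.0570). The sequence identity of CR10102 and Arc1 was not analysed here, and counting may have split reads between such copies. Both levels and the tests of CR10102 carry that uncertainty. These tests are therefore not taken as independent of Arc1, which was chosen on these contrasts. Per length, CR10102 stood at 0.236 and 0.227 times the FPKM of Arc1 in rescue, 0.320 and 0.324 times in mutant and 0.164 and 0.202 times in control.

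Arc2 followed the same order at a far lower level. It had 386 and 277 counts in the rescue libraries, 605 and 389 in the mutant libraries and 114 and 113 in the control libraries. In CPM these were 22.0 and 15.1 in rescue, 36.6 and 23.2 in mutant and 8.56 and 6.63 in control, with no overlap between genotypes. Rescue 1 and mutant 2 were the closest libraries of different genotypes. Arc2 averaged 29.9 ± 9.45 CPM in mutant larvae and 7.60 ± 1.37 CPM in control larvae (SD, n = 2 each), a 3.94-fold difference (log2 1.98, SE 0.32). In rescue larvae it averaged 18.5 ± 4.86 CPM, 2.44 times the control level (log2 1.29, SE 0.32), and differed from mutant larvae by -0.69 on the log2 scale (SE 0.31), close to the -0.68 of Arc1. Per length, the FPKM of Arc1 was 53.9 and 54.3 times that of Arc2 in the rescue libraries, 51.4 and 57.4 times in the mutant libraries and 26.4 and 31.5 times in the control libraries. Arc1 was thus further above Arc2 in the 4 fiomut homozygous libraries than in either control library.

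Iris was far higher in mutant larvae than in the other genotypes. Its counts were 15 and 11 in the rescue libraries (exact 95% Poisson intervals 8.40 to 24.7 and 5.49 to 19.7), 290 and 176 in the mutant libraries (258 to 325 and 151 to 204) and 19 and 30 in the control libraries (11.4 to 29.7 and 20.2 to 42.8). The corresponding levels were 0.854 and 0.600 CPM in rescue, 17.5 and 10.5 CPM in mutant and 1.43 and 1.76 CPM in control. Both mutant libraries stood far above all others. The rescue libraries were also below the control libraries, but the counting intervals of rescue and control counts overlapped for every pair except rescue 2 and control 2. Iris averaged 14.0 ± 4.97 CPM in mutant larvae and 1.59 ± 0.235 CPM in control larvae (SD, n = 2 each), an 8.72-fold difference (log2 3.12, SE 0.38). In rescue larvae it averaged 0.727 ± 0.180 CPM, 0.0523 times the mutant level (log2 -4.26, SE 0.41) and 0.456 times the control level (log2 -1.13, SE 0.42). By length, Iris stood at 0.0198 and 0.0203 times the FPKM of Arc2 in rescue, 0.245 and 0.231 times in mutant and 0.0851 and 0.136 times in control.

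In rescue and mutant, library 1 was the higher one for all 3 members. Library 1 was above library 2 by 1.44, 1.45 and 1.42 times for Arc1, Arc2 and Iris in rescue, and by 1.41, 1.58 and 1.67 times in mutant. In control the ratios were 1.08, 1.29 and 0.811, so Iris ran the other way from Arc1 and Arc2 there. The spread within the genotypes carrying fiomut in 2 copies was therefore wider than within control for Arc1, by these ratios and by the SDs given above.

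Set against all tested genes, the members' differences between mutant and control were large but not extreme. Only 2.92, 5.71 and 2.49% of the tested genes had a higher log2 fold change in mutant against control than Arc1, Arc2 and Iris. By the fit across all genes, 3 of the 3 members were called higher in mutant than in control at an adjusted p under 0.05, where 17.0% of the tested genes were called, 9.94% higher and 7.04% lower. Arc1 was the 1 member called between rescue and control, where 0.64% of the genes were called, 0.354% higher and 0.287% lower. Iris was the 1 member called between rescue and mutant, where 16.1% were called, 7.61% higher and 8.47% lower. The members were chosen on these contrasts, so nothing is read from these counts. For Iris, 0.472% of the genes had a lower log2 fold change in rescue against mutant, and for Arc1 1.26% had a higher one in rescue against control.

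**Figure D3:**
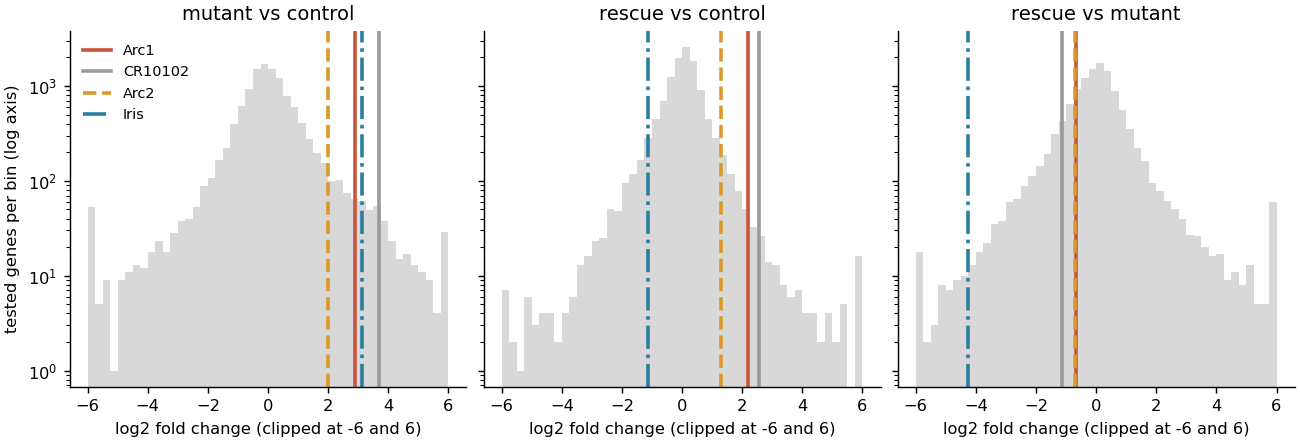
Distribution of log2 fold changes of the 11866 tested genes in each comparison (bars, genes per bin on a log axis, values beyond -6 and 6 placed at the ends), with vertical lines for Arc1, CR10102, Arc2 and Iris. All 4 lines lie at 1.98 or above for mutant against control, and for rescue against control Iris at -1.13 is on the other side of 0 from the rest.

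The order of the genotypes sets the members apart from each other. Arc1 and Arc2 had mutant above rescue above control without overlap, an order found in 7.72% of the tested genes. Iris had mutant above control above rescue without overlap, an order found in 3.4% of the tested genes. Without overlap in the single comparisons, mutant was above control in 30.7% of the genes and below it in 30.2%, rescue above control in 30.7% and below it in 23.5%, and rescue above mutant in 33.8% and below it in 33.1%. A call in both mutant and rescue over control, which Arc1 and CR10102 had, was made for 29 genes, 0.244% of those tested. A call higher in mutant and then lower in rescue than in mutant, which Iris and CR10102 had, was made for 681 genes, 5.74% of those tested. Mutant libraries enter both sides of the count of 681 genes, and control libraries both sides of the count of 29 genes.

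The members lie on the chromosome whose genotype differs between the groups. Arc1 and Arc2 are 788 and 785 kb from CG7544 on 2R, and Iris is on 2L, the other arm of the same chromosome. Both copies of fio were mutant in rescue and mutant larvae, whereas control larvae carried fiomut once beside CyO. Rescue and mutant larvae were also both U6mut/U6+, which the control label does not name. In the comparisons with control, the loss of fio, the U6 mutation and alleles of the members linked to fiomut or CyO therefore cannot be told apart. The rescue label writes [U6+] beside fiomut, ahead of the semicolon that separates chromosomes, so rescue and mutant larvae differed in that chromosome too. Between them, the added element and alleles of the members linked to it cannot be told apart. Between mutant and control 17.3% of the tested genes on 2R were called, against 16.5% on 2L, 18.1% on 3L, 19.1% on 3R and 13.1% on X, and 18.4% of those within 1000 kb of CG7544. Between rescue and mutant the shares were 17.3% on 2R, 16.5% on 2L, 16.3% on 3L, 16.7% on 3R, 13.2% on X and 17.1% within 1000 kb of CG7544. Of the 76 genes called between rescue and control, 30 lay on 2R, which is 1.24% of the 2418 genes tested there. The share was 0.464% on 2L, 0.476% on 3L, 0.72% on 3R and 0.208% on X. Of the 234 tested genes within 1000 kb of CG7544, 3 were called between rescue and control. Arc1 and CR10102 were among these 3 and among the 30 on 2R. The members were not left out of any of these shares. The counts between rescue and control depend on single libraries, since leaving out 1 library gave 8 to 365 genes called higher in rescue and 4 to 413 called lower.

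The genes around the Arc locus were not called with it in the comparisons with control. Calls were made for 17.0% of all tested genes between mutant and control and 0.64% between rescue and control. Between rescue and mutant the share was 16.1%. CG8617, 645 bp beyond the 3′ end of Arc1, had 339 and 298 counts in rescue, 241 and 258 in mutant and 215 and 265 in control, and log2 differences of -0.08 for mutant against control (SE 0.21, edgeR adjusted p = 0.813) and 0.17 for rescue against control (SE 0.21, edgeR adjusted p = 0.712). Tfb1, a subunit gene of the general transcription factor TFIIH 222 bp beyond Arc2, had 0.00 (SE 0.18, edgeR adjusted p = 0.994) and 0.29 (SE 0.18, edgeR adjusted p = 0.458) in the same comparisons. Besides the Arc genes and CR10102, 9 tested genes reached within 50 kb of Arc1. By edgeR 0 of them were called between mutant and control (0 at an unadjusted p under 0.05 and 0 by DESeq2), with log2 differences from -1.25 to 1.23. Between rescue and control edgeR called 0 (1 at an unadjusted p under 0.05 and 1 by DESeq2), with log2 differences from -0.48 to 2.37. The highest of these, 2.37 for Obp50d, was above the 2.20 of Arc1 and the 1.29 of Arc2, and CG34443 had 1.16. Between mutant and control Obp50d and CG34443 had -0.90 and -0.63, on the other side of 0 from the Arc genes. Between rescue and mutant 1 rose and 1 fell, Obp50d, an odorant-binding protein gene (log2 3.27), and CG8613 (log2 -0.71). These 3 genes were named after their values were seen.

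No gene around Iris was called by edgeR. The shares of all tested genes called were 17.0% between mutant and control, 0.64% between rescue and control and 16.1% between rescue and mutant. CG4552, the gene overlapping its 3′ end, had 800 and 979 counts in rescue, 878 and 1014 in mutant and 585 and 673 in control, with log2 0.45 for mutant against control (SE 0.19, edgeR adjusted p = 0.146) and -0.20 for rescue against mutant (SE 0.19, edgeR adjusted p = 0.494). The strand setting of the counting is not given in the sources used here, so reads in the 80 shared bases cannot be assigned with certainty. CG4577, 594 bp upstream of Iris, and Pino, 3378 bp beyond its other end, had log2 0.30 and 0.35 for mutant against control (edgeR adjusted p = 0.464 and 0.362). Of 23 tested genes within 50 kb of Iris, edgeR called 0 between mutant and control (5 at an unadjusted p under 0.05 and 2 by DESeq2), 0 between rescue and control (1 and 1) and 0 between rescue and mutant (5 and 3). Their log2 differences ran from -0.47 to 1.60 for mutant against control and from -0.98 to 0.94 for rescue against mutant.

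**Figure D4:**
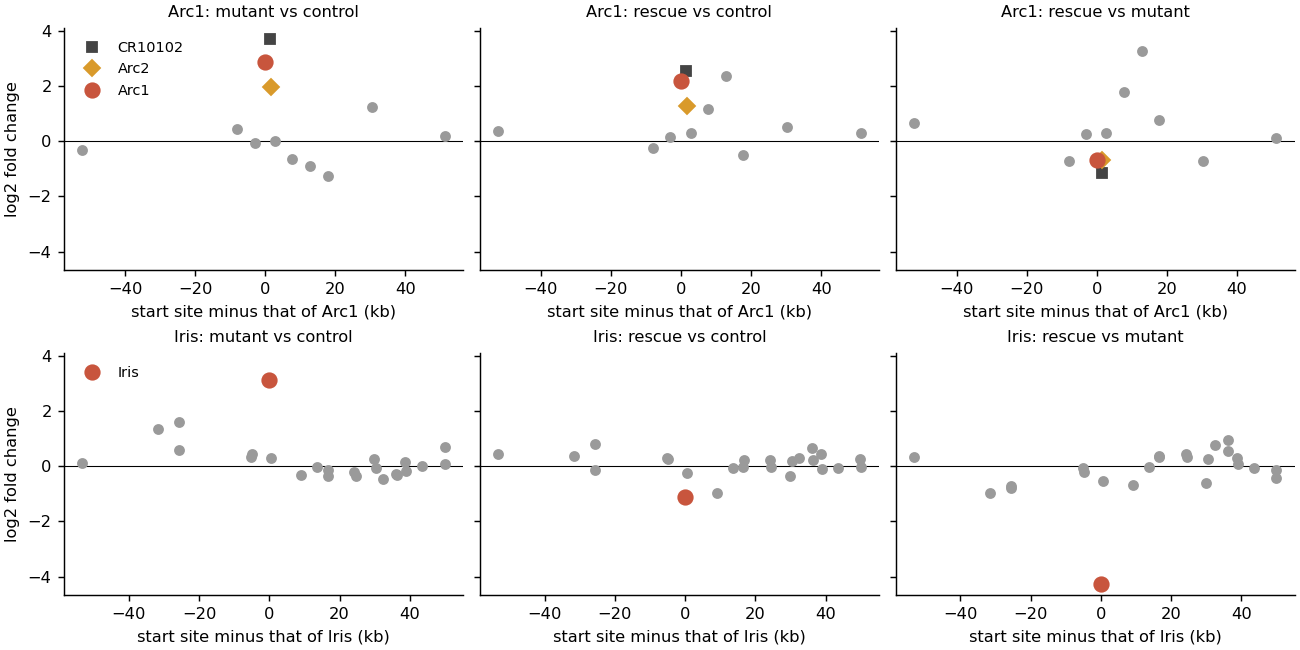
Log2 fold change of the tested genes reaching within 50 kb of Arc1 (upper row) and of Iris (lower row) against the distance of their start sites from that of the member (kb), for each comparison. The Arc genes and CR10102 are above 0 in both comparisons with control. For rescue against control Obp50d (2.37) and CG34443 (1.16) lie among them. Iris stands alone among its 23 neighbours at 3.12 for mutant against control and -4.26 for rescue against mutant.

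The genes whose levels ran most like the members' over the 6 libraries were taken by the smallest root mean square difference of centred log2 CPM, 5 for each. For Arc1 these were CG30486, CG34167, CG6293, CR43468 and CG9672, at 0.16 to 0.34 log2 units. Most of them were scarce, since CG30486 had 9 and 9 counts in rescue, 17 and 11 in mutant and 0 and 0 in control. Among the better-covered ones, CG9672 had 19.4 and 17.7 CPM in rescue, 62.1 and 36.8 CPM in mutant and 6.46 and 4.22 CPM in control. CG30486 (2R, 12848034 to 12848993) and CR43468 (2R, 12875164 to 12877280) are close to each other on the arm that holds Arc1. Arc2 itself was at place 37 for Arc1, at 0.44 log2 units, and Iris was at place 9572, at 1.55.

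For Arc2 the nearest profiles were CG34198, the dicarboxylate carrier gene Dic4, the gustatory receptor gene Gr94a, the cytochrome P450 gene Cyp28d2 and CR46108, at 0.16 to 0.20 log2 units. Of these, Cyp28d2 had the highest level, with 6.95 and 6.66 CPM in rescue, 16.7 and 9.37 CPM in mutant and 4.06 and 2.76 CPM in control. Arc1 was at place 251 for Arc2. For Iris they were CG4302, CG31974, FucTC, a fucosyltransferase gene, CG11289 and CG5724, at 0.35 to 0.40 log2 units. CG4302 had 7.23 and 3.16 CPM in rescue, 60.3 and 42.4 CPM in mutant and 6.99 and 8.27 CPM in control. FucTC had 1.25 and 0.818 CPM in rescue, 12.0 and 12.9 CPM in mutant and 1.28 and 1.53 CPM in control. With Pearson correlation as the measure, 2 of the 5 genes for Arc1 and 0 of the 5 for Arc2 and for Iris were shared with these lists. By that measure CR10102 was at place 1 for Arc1 (r = 0.994), with a root mean square difference of 0.35 log2 units.

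**Figure D5:**
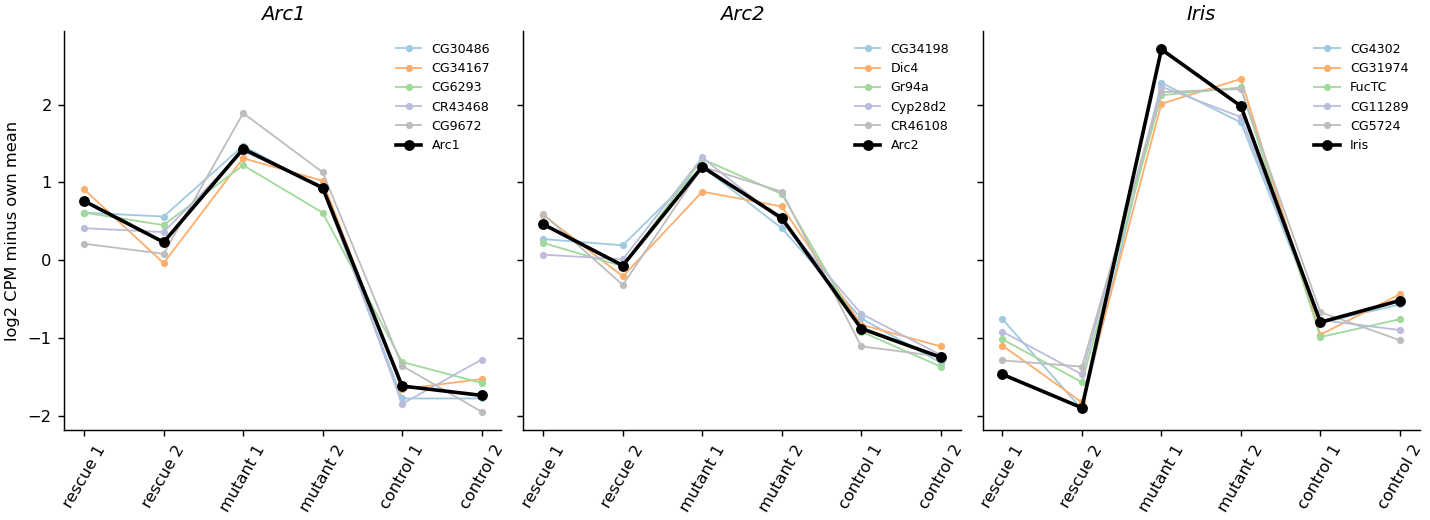
Log2 CPM minus its own mean over the 6 libraries for Arc1, Arc2 and Iris (black) and for the 5 genes with the smallest root mean square difference from each (colours). Arc1 and Arc2 profiles are lowest in both control libraries, and Iris profiles are high in both mutant libraries and low in the other 4.

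The 4 other genes listed as coming from mobile elements, a list without CR10102, did not pass the test in any comparison. Among all tested genes 17.0% passed between mutant and control, 0.64% between rescue and control and 16.1% between rescue and mutant. Gagr, which like the Arc genes descends from a Gag protein, had 3.08 and 4.04 CPM in rescue, 5.68 and 5.31 CPM in mutant and 4.51 and 5.98 CPM in control. The mutant libraries lay within the range of the control libraries for Gagr. For ebd2 the mutant libraries were the highest, at 7.86 and 9.55 CPM. It had 2.96 and 5.78 CPM in rescue and 4.13 and 5.16 CPM in control. Its log2 differences were 0.90 for mutant against control (edgeR adjusted p = 0.135) and -0.99 for rescue against mutant (0.110). The list held Gagr, ebd1, ebd2 and cag, and edgeR called 0 of 4 in each comparison. At an unadjusted p under 0.05 there was 1 higher for mutant against control and 1 lower for rescue against mutant, and DESeq2 called 0 in each comparison. The median log2 difference for mutant against control was 0.08, beside -0.02 over all tested genes.

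Genes that silence retroelements through small RNAs, the PIWI-interacting and small interfering RNA pathways, mostly did not pass the test. Most tested genes did not either, with 17.0% called between mutant and control, 0.64% between rescue and control and 16.1% between rescue and mutant. Of 28 tested, 1 rose and 1 fell in mutant against control, with a median of 0.10. The helicase gene spn-E had 10.9 and 11.5 CPM in mutant against 5.33 and 3.46 CPM in control (log2 1.35, SE 0.29, edgeR adjusted p = 0.0233), and the Tudor-domain gene SoYb had 0.665 and 1.07 CPM in mutant against 2.63 and 4.17 CPM in control (log2 -1.96, SE 0.47, edgeR adjusted p = 0.0309). Leaving out mutant 1, mutant 2 or control 2 ended the call for spn-E (edgeR adjusted p = 0.100, 0.101 and 0.0673) and for SoYb (0.153, 0.0911 and 0.115), and SoYb was also lost without rescue 1 or rescue 2 (0.0505 each). Between rescue and control edgeR called 0 (4 at an unadjusted p under 0.05, and 0 by DESeq2), and between rescue and mutant qin alone fell (log2 -1.39, edgeR adjusted p = 0.0491; 0.0242 to 0.223 over 13 alternatives).

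Genes of vesicle release and of messenger RNA transport are given beside the shares of all tested genes called by edgeR. These were 17.0% between mutant and control, 0.64% between rescue and control and 16.1% between rescue and mutant. Of 24 genes for endosomal sorting and vesicle release, edgeR called 0 between mutant and control (4 at an unadjusted p under 0.05, 2 by DESeq2; median log2 0.03) and 0 between rescue and control (6 at an unadjusted p under 0.05, 3 by DESeq2; median 0.30). Between rescue and mutant Hrs, which sorts ubiquitinated cargo on endosomes, rose, with 108 and 119 CPM in rescue against 47.8 and 53.8 CPM in mutant (log2 1.16, SE 0.20, edgeR adjusted p = 0.0127). That call was lost without rescue 2, mutant 1 or mutant 2 (edgeR adjusted p = 0.0761, 0.0836 and 0.0572). Of 11 tested RNA-binding protein genes for messenger RNA transport and local translation, orb2 rose (log2 0.92, SE 0.24, edgeR adjusted p = 0.0407) and the translational repressor gene brat fell (log2 -1.11, SE 0.28, edgeR adjusted p = 0.0351) in mutant against control; cup was listed at 0. The calls were lost without mutant 1, mutant 2 or control 2 for orb2 (0.107, 0.156 and 0.149) and for brat (0.158, 0.0731 and 0.121), and orb2 was also lost without rescue 1 or rescue 2 (0.0572 and 0.0577). With only mutant and control in the fit orb2 was lost (0.0535), and with library totals brat was lost (0.0885). In rescue against mutant orb2 fell (log2 -1.07) while brat (log2 1.41) and Syp rose, the last with 364 and 420 CPM in rescue against 166 and 227 CPM in mutant. These 3 calls were lost without rescue 2, mutant 1 or mutant 2, and those of orb2 and Syp also without rescue 1. Between rescue and control edgeR called 0 of the 11 (0 at an unadjusted p under 0.05, 0 by DESeq2). Of 8 activity-regulated and immediate-early genes, edgeR called 0 between mutant and control (1 at an unadjusted p under 0.05, 1 by DESeq2) and 0 between rescue and control (2 and 1), and Jra rose between rescue and mutant (log2 0.73, edgeR adjusted p = 0.0381; 0.00797 to 0.260 over 13 alternatives).

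Midgut genes rose in mutant against control larvae and fell in rescue against mutant larvae. Over all tested genes edgeR called 9.94% higher in mutant against control, 8.47% lower in rescue against mutant and 0.354% higher in rescue against control. Of 14 enterocyte genes 13 rose in mutant against control, with a median log2 difference of 4.15, and 10 fell in rescue against mutant, with a median of -3.01. Leaving out mutant 2 left 8 of the 13 increases. The summed level of these genes was 2588 and 900.3 CPM in the rescue libraries, 12883 and 10411 CPM in the mutant libraries and 1126 and 647 CPM in the control libraries, and none of the 14 was at 0. The digestive trypsin gene alphaTry had 46.5 and 40.8 CPM in rescue, 1017 and 916 CPM in mutant and 28.4 and 23.1 CPM in control, and the maltase gene Mal-A1 had 1.37 and 2.84 CPM in rescue, 78.5 and 75.7 CPM in mutant and 0.901 and 1.17 CPM in control. In rescue against control 1 gene rose, Amy-d, an amylase gene (log2 5.37, edgeR adjusted p = 0.0388; lost without mutant 1, mutant 2 or control 1 at 0.120, 0.115 and 0.0650; 6 genes rose by DESeq2). The part of midgut tissue or its enzymes in the levels of Iris and the Arc genes was not tested.

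RNA of whole larvae does not show which tissue a transcript came from. Genes listed for enteroendocrine cells, the hormone cells of the gut, moved in part. Of 9, 5 rose and 1 fell in mutant against control, with a median of 1.41, and 1 of the increases was left without mutant 1, and 3 without mutant 2 or without control 2. The tachykinin gene Tk had 4.96 and 6.33 CPM in rescue, 21.4 and 18.3 CPM in mutant and 3.61 and 3.23 CPM in control, and its rise in mutant against control (log2 2.54, SE 0.27, edgeR adjusted p = 0.00162) held in all 13 alternatives. In rescue against mutant 3 fell, 0 of them without mutant 1, and 6 fell without control 1, without control 2 or by DESeq2. The gene that fell in mutant against control was pros (log2 -1.31, SE 0.34, edgeR adjusted p = 0.0387). It had 75.9 and 112 CPM in rescue, 31.2 and 52.0 CPM in mutant and 83.2 and 124 CPM in control. With library totals as the only scaling that call was lost (edgeR adjusted p = 0.0781). The summed level was 169.8 and 181 CPM in rescue, 272 and 213 CPM in mutant and 170.2 and 202 CPM in control. Most of it came from pros and CCHa2, which moved in opposite directions in mutant against control. Over all tested genes edgeR called 9.94% higher and 7.04% lower in mutant against control, and 8.47% lower in rescue against mutant.

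Genes of neurons, the cells in which Arc1 is best known, overlapped between genotypes in summed level. Of 12, 3 fell and 1 rose in mutant against control (median -0.72), with 0 of the decreases without mutant 1 and 1 without control 2. Those that fell were fne (log2 -1.68), nSyb (log2 -1.22) and elav (log2 -1.02), and unc-13 rose (log2 1.08; lost without mutant 2, control 1 or control 2). In rescue against mutant fne, nSyb and elav rose (log2 1.67, 0.92 and 0.96), 0 of them without rescue 2 or mutant 1, and 0 fell. Between rescue and control edgeR called 0 (2 at an unadjusted p under 0.05, 0 by DESeq2). Over all tested genes edgeR called 9.94% higher and 7.04% lower in mutant against control. The shares were 7.61% higher and 8.47% lower in rescue against mutant, and 0.64% in either direction in rescue against control. The neuronal RNA-binding protein gene elav had 46.1 and 71.4 CPM in rescue, 27.0 and 33.2 CPM in mutant and 54.5 and 67.3 CPM in control. Summed, the 12 genes had 596 and 703 CPM in rescue, 526 and 655 CPM in mutant and 551 and 629 CPM in control. The most abundant of them, Syt1, Csp and unc-13, made up much of that sum, whereas elav, nSyb and fne did not overlap between mutant and control. The part of neurons in the members' levels was not tested.

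The remaining tissue markers gave other patterns. Over all tested genes edgeR called 7.04% lower in mutant against control and 0.287% lower in rescue against control. In rescue against mutant it called 7.61% higher and 8.47% lower. The summed level of 9 muscle genes, from the tissue that takes up Arc1 particles, was 19883 and 17906 CPM in rescue, 31842 and 33231 CPM in mutant and 83123 and 48450.5 CPM in control. In mutant against control 4 of them fell, 0 without rescue 1, rescue 2, mutant 1, mutant 2 or control 1, and in rescue against control edgeR called 0 (9 at an unadjusted p under 0.05, 9 by DESeq2, all lower). The summed level of 7 salivary glue genes was 14302 and 14571 CPM in rescue, 24.2 and 479.6 CPM in mutant and 2985 and 8903 CPM in control. Of these, 5 fell in mutant against control, 2 without mutant 1 and 1 without control 2, and 6 rose in rescue against mutant, 3 without mutant 1. The 8 hemocyte genes summed to 287 and 341 CPM in rescue, 658 and 868 CPM in mutant and 1405 and 628 CPM in control, and 3 fell in rescue against mutant, 1 without rescue 1 and 0 without rescue 2, mutant 1 or mutant 2. The 9 germline genes summed to 58.7 and 57.7 CPM in rescue, 39.2 and 47.0 CPM in mutant and 74.6 and 60.1 CPM in control, and 2 of 8 tested fell in mutant against control, with 0 or 1 left without any 1 library. The largest part of the germline sum was ovo, 1 of the 2 that fell. It had 44.0 and 45.2 CPM in rescue, 15.1 and 26.1 CPM in mutant and 40.1 and 42.9 CPM in control. In rescue against mutant ovo rose (log2 1.11), while the median of the 8 tested germline genes was -0.41, so the sum mainly follows ovo. The part of these tissues in the members' levels was not tested.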

How the data were processed

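Read counts per gene, deposited by the authors without normalization, were used for all tests. FPKM values, which the authors divided by gene length and by a denominator of each library (80.4 to 113% of its counts), were used to compare levels between genes; the deposited group FPKM equal the mean of the libraries. The sources used here name no aligner, counting tool, strand setting or build; 17669 gene IDs matched the RefSeq table of Release 6, 99.5% with the same start.

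All 6 libraries entered 1 quasi-likelihood fit in edgeR 4.0.16 (R 4.3.3), with trimmed-mean factors, filterByExpr at a minimum count of 10 and Benjamini-Hochberg adjustment within a contrast. Genes were called at an adjusted p under 0.05; SE is the absolute log2 fold change over the square root of F. Log2 CPM used a prior count of 2. The script was tested on simulated data. Within a genotype, counts differed beyond sampling noise (chi-square per degree of freedom 56.9 to 109), so libraries stayed separate. DESeq2 1.42.0, other scalings, no filter, a replicate block and leaving out libraries were tried. Named genes were the members, up to 5 called genes per list, the 5 nearest profiles and adjacent genes. Members and the 14 lists were chosen with earlier results of these data known.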

Additional observations from a re-analysis of the deposited data

How the results depend on the processing

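Of 117 recomputed log2 fold changes of Arc1, Arc2 and Iris, 110 moved by less than the spread between replicates, 7 moved further and 0 changed sign. Leaving out a library of the genotype outside a comparison hardly moves its value. With 2 libraries a genotype, leaving out 1 within the comparison moves it by about that spread at most. The 110 are therefore no measure of how stable the values are. With library totals as the only scaling, which put the median gene at 0.19 for mutant against control and 0.38 for rescue against control (-0.02 and 0.07 in the reported fit), the values for rescue against control were 2.52 for Arc1, 1.61 for Arc2 and -0.83 for Iris. Leaving out 1 library gave 2.62 to 3.11, 1.62 to 2.27 and 2.72 to 3.45 for Arc1, Arc2 and Iris in mutant against control, 1.91 to 2.44, 0.99 to 1.53 and -1.40 to -0.90 in rescue against control, and -0.97 to -0.41, -0.98 to -0.33 and -4.58 to -3.85 in rescue against mutant. The order of the libraries was the same by FPKM.

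Counts of genes called depended more on the setting. For mutant against control (1180 higher, 835 lower), library totals gave 1554 and 510 and DESeq2 1486 and 1344; leaving out 1 library gave 475 to 1042 and 136 to 888. For rescue against control (42 and 34), library totals gave 101 and 34, no filter 200 and 278, only these genotypes in the fit 7 and 4, DESeq2 392 and 634, and leaving out 1 library 8 to 365 and 4 to 413. For rescue against mutant (903 and 1005), leaving out 1 library gave 116 to 1203 and 284 to 1304.

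Replicate numbers do not pair the libraries in the labels, and the deviations of same-numbered libraries correlated at 0.0164 to 0.0554. With the replicate number as a block, Arc1, Arc2 and Iris had 2.86, 1.95 and 3.07 in mutant against control, 1066 genes were called higher and 765 lower there, and rescue against control had 48 and 69 calls.

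Among neighbours near 0, signs turned with library totals for CG8617 (0.13), Tfb1 (0.19) and CG4577 (0.06 in rescue against control), and for Pino (0.06 in rescue against mutant). Tfb1 was at 0.00 without a filter and, as an alternative chosen after seeing the data, without the mitochondrial large ribosomal RNA. Leaving out 1 library gave -0.10 to 0.10 for Tfb1 and -0.04 to 0.59 for CG4577 in mutant against control, and for Pino -0.02 to 0.57 in rescue against control and -0.37 to 0.22 in rescue against mutant. The cause of these shifts was not tested. Depth limits Iris most, at 11 to 30 counts in rescue and control.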
